A study of Homo sapiens with 2 samples.

Results

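The genes that set the pace of G1, the interval between mitosis and DNA synthesis, were compared between a MET inhibitor-resistant lung cancer line and its parent. The set holds the kinase genes CDK4, CDK6 and CDK2, the cyclin genes CCND1, CCND3 and CCNE1, the inhibitor genes CDKN1A, CDKN1B and CDKN1C of the CIP/KIP family, and RB1. They were chosen by gene symbol, and all 10 were found among the 18944 genes of the deposited table. RNA was sequenced from H1993, an established human lung adenocarcinoma line in which the receptor tyrosine kinase gene MET is amplified, and from 1 resistant derivative of it. The parental library is labelled as DMSO-treated and the resistant library as treated with PHA665752, a drug that blocks MET kinase activity. The derivative was selected with PHA665752 raised from 1 nM to 1 µM, was kept in 1 µM, and was grown without drug for 1 week ahead of experiments. Whether the cells were in drug at RNA extraction, and whether the derivative is a clone, is not given in the labels.

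Cells leave G1 when D-type cyclins bind CDK4 or CDK6 and cyclin E binds CDK2. These kinases phosphorylate the RB1 protein, which otherwise holds back E2F transcription factors and with them the genes of DNA synthesis. CIP/KIP proteins bind cyclin-CDK complexes and block CDK2 above all, and growth factor receptors act on the same machinery by raising cyclin D and by lowering CDKN1B protein. Much of this control works on protein amount and phosphorylation, which RNA counts do not measure.

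Each group had 1 library, of 16723181 counts (parental) and 17086748 counts (resistant). No replicate measures how much a gene varies between cultures, so there is no test and every difference describes these libraries. Intervals are exact 95% intervals for counting error only. Levels are given as CPM, counts scaled for library size, with the parental value first. MET itself stood at 4859 and 3054 CPM, and AURKB, the mitotic kinase that the series title names, at 61.7 and 35.6 CPM. The keratin genes KRT7, KRT8 and KRT18 were abundant in both libraries, whereas the lung adenocarcinoma marker gene NAPSA had 0 counts in both, SFTPB had 2 counts in each, and NKX2-1 stood at 4.16 and 5.95 CPM. Of the epithelial markers, EPCAM was lower in the resistant library, at 389 and 164 CPM, a log2 ratio of -1.25, and CDH1 (-0.69) and KRT19 (-0.63) had ratios below 0. KRT8 (0.35), KRT18 (0.33), KRT7 (0.05) and NKX2-1 (0.51) had ratios above 0. Over the 7 tested epithelial and lung adenocarcinoma markers the median was 0.05, with 3 ratios below 0. Of 12 marker genes of immune, endothelial and fibroblast cells, CD3E and DCN had 0 counts in both libraries. The 12 together reached 108 and 76.1 CPM, of which the macrophage marker CD68 made 86.0 and 31.6 CPM. The fibroblast marker COL1A1 was present in both, with 348 and 242 counts, or 20.7 and 14.3 CPM, and was not called. CDH5, a cadherin gene of endothelial cells, had 5 and 495 counts, while PECAM1 had 1 and 0 and VWF 0 and 1. The leukocyte gene PTPRC had 21 and 7 counts. By the 2-fold rule given below CDH5 was higher and CD68 and PTPRC were lower, with CDH5 and PTPRC each tested only through the library where it was higher. The part of these genes in the results below was not tested.

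The rule for a call, higher or lower, was a log2 ratio of resistant over parental at or beyond 1 (2-fold) in either direction with an interval that left out 0. By this rule 1 of the 10 genes, CDK6, was higher, beside 12.1% of all 12245 tested genes. CDKN1B and CDKN1C, 2 of the 10, were lower, beside 8.29% of all tested genes. With so few genes these shares lie near the background and are given as counts only. The other 7 did not pass. CDKN1C was tested only through the parental library, which fixed its direction in these counts. The log2 ratio was below 0 for 9 of the 10 genes, beside 6122 of the 12245 tested genes, and the median was -0.54, beside 0.00 for all tested genes. The interval lay wholly below 0 for 8 genes, wholly above 0 for CDK6, and held 0 for CCND1. No share of all tested genes by this measure is given, so these interval counts are descriptions only.

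**Figure D1:**
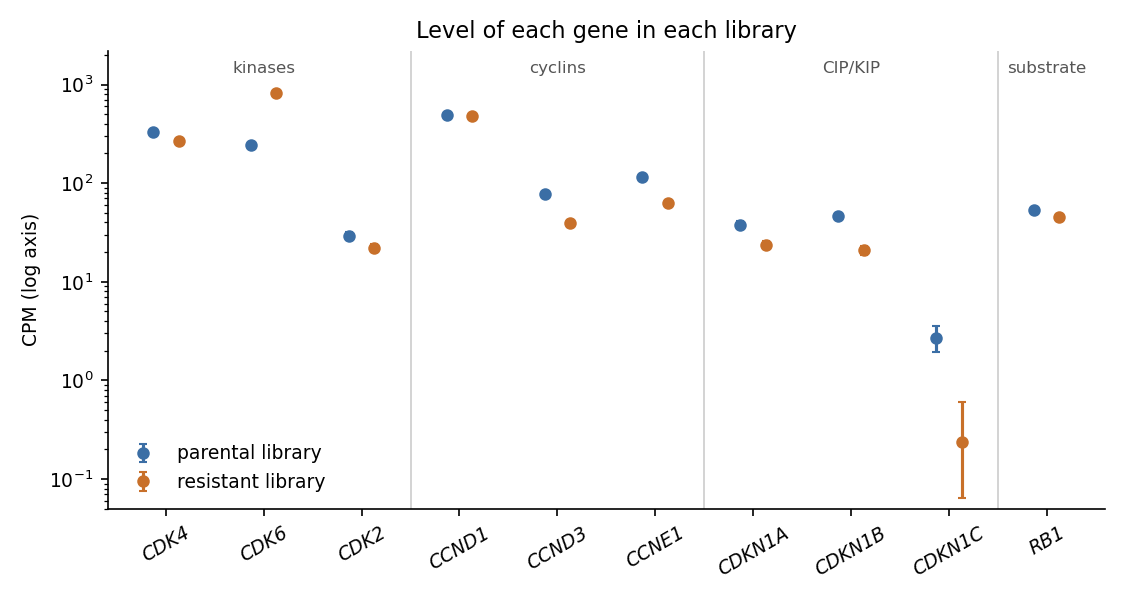
Level of the 10 genes in the parental and resistant libraries, in CPM on a log axis, grouped by role. Points are single libraries and bars are exact 95% counting intervals. CDK6 is the 1 gene higher in the resistant library, at 813 against 241 CPM, and CDKN1C has the lowest CPM, at 2.67 and 0.236 CPM.

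Among the kinases, CDK6 stood apart from its partners. CDK6 encodes 1 of the pair of kinases that D-type cyclins activate, and it also acts in transcription complexes in some cell types. The parental library held 4065 counts, or 241 CPM (234 to 249), and the resistant one 13793 counts, or 813 CPM (799 to 826). It was 3.36-fold higher (3.25 to 3.49) in the resistant library, and 7.19% of all tested genes had a higher ratio. Its rank by CPM went from 797 to 126 among the tested genes.

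CDK4, the other kinase partner of D-type cyclins, had 5586 and 4577 counts, or 332 CPM (323 to 341) and 269.6 CPM (262 to 278). The level was lower in the resistant library by a small step, at a log2 ratio of -0.30 (-0.36 to -0.24). CDK2, the partner of cyclins E and A, had 492 and 374 counts, or 29.2 CPM (26.7 to 31.9) and 22.03 CPM (19.9 to 24.4). Its log2 ratio of -0.41 (-0.61 to -0.21) was also short of the 2-fold rule. CDK4 and CDK2 thus differed in the direction opposite to CDK6.

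Ratios between a pair of these genes within 1 library need no library size. The CDK6 to CDK4 count ratio was 0.728 among parental and 3.01 among resistant counts, a change of 4.14-fold (3.93 to 4.37). The CDK2 to CDK4 count ratio was 0.0881 and 0.0817, and the interval of its change, 0.804 to 1.07, held 1. Over the 9 pairs compared, the interval also held 1 for RB1 to CDK4, at 0.939 to 1.16.

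Counts of different genes cannot be compared without length. The authors' deposited log2 values were read as length-scaled levels, and 2 to their power, minus 1, is used here as a level per length. That reading was not tested against annotated lengths, and every per-length value rests on it. On that scale CDK4 stood at 178 (parental) and 145 (resistant), CDK6 at 20.3 and 68.2, and CDK2 at 13.5 and 10.2. CDK4 was thus above CDK6 per length in both libraries, although CDK6 had more counts in the resistant one. CDK6 made 10.2% of the per-length sum of CDK4 and CDK6 in the parental library and 32.0% in the resistant one. The sum itself was 198 and 213.

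**Figure D2:**
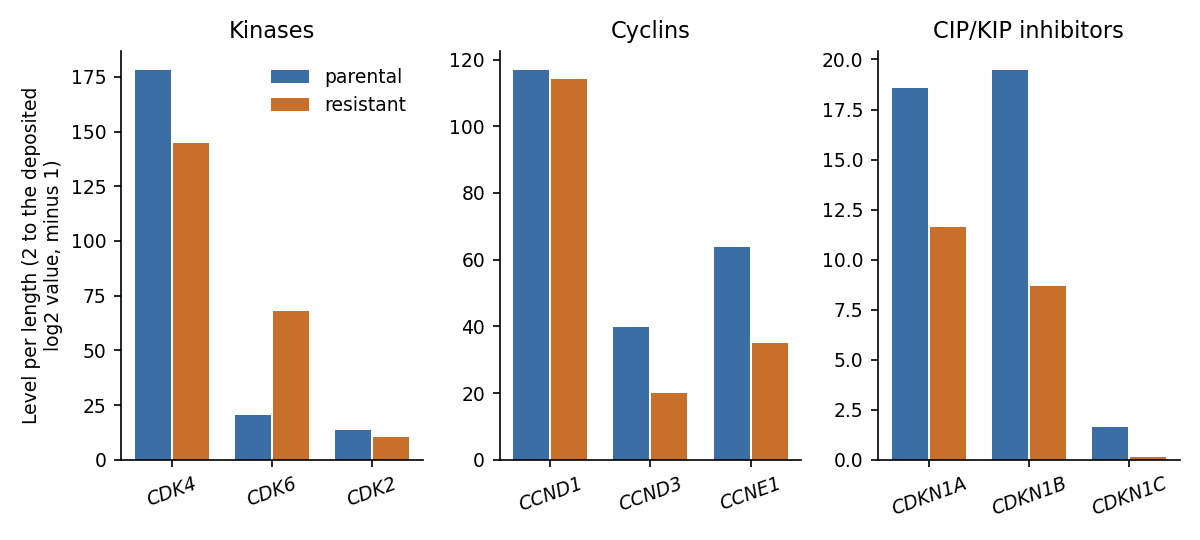
Level per length of the kinase, cyclin and CIP/KIP genes, computed as 2 to the authors' deposited log2 value, minus 1, with axes from 0 and no error because each bar is 1 library. CDK6 goes from 20.3 to 68.2 and stays under CDK4, and the CIP/KIP bars are all shorter in the resistant library.

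CDK4 overlaps a neighbour, and whether the overlap affected its counts was not tested. In GENCODE release 29, 43.2% of the exonic bases of CDK4 are also exonic in TSPAN31 on the opposite strand, and 16.8% of those of CDK2 and 10.3% of those of CCND1 lie in exons of opposite-strand genes. For CDK6, CCND3 and CDKN1A the share was 0.66%, 0.41% and 4.79%. CCNE1, CDKN1B, CDKN1C and RB1 had 0 such bases. The strand setting of the counting is not stated, so reads of CDK4 and TSPAN31 in the shared bases cannot be told apart. TSPAN31 had 263 and 356 counts, a log2 ratio of 0.42, against 5586 and 4577 counts and -0.30 for CDK4.

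RefSeq gives CDK6 more than 1 start. The stretches before the starts are shown because CDK6 is the 1 gene of the set that was higher. They read 5′ to 3′ on the minus strand of GRCh38.p14, at chr7:92836595-92836823 and chr7:92833960-92834209, and leave out bases that a CDK6 exon covers. Capitals mark GC boxes, GGGCGG on either strand, the element that SP1-type factors bind.
CDK6 before the first start: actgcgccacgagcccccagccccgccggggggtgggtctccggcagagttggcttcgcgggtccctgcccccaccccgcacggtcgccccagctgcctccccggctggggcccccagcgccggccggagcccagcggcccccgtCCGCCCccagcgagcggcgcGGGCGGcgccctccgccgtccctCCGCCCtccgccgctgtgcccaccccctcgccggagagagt
CDK6 before the second start: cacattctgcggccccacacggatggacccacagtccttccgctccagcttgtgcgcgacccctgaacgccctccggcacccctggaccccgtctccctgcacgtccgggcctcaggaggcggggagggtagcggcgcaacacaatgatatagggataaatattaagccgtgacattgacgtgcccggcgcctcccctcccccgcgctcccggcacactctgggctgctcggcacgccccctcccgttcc
The stretch before the first start is 229 bases long with 82.1% G and C and holds 3 GC boxes. The stretch before the second is 250 bases long with 67.6% G and C and holds 0. The deposited counts do not separate transcripts by start, so the use of each start was not measured.

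RefSeq promoter windows, each with 250 bases before a start and the first bases after it, matched 7 of the 10 genes with 10 windows in all. CDK2, CCND1 and CDKN1C had no entry. GC boxes were in 7 of the 10 windows, beside 45.0% of all 35116 windows. The E-box CACGTG, bound by MYC-type factors, was in 2 windows, with 3 matches at CDK4 and 1 at the first CDK6 start, beside 7.26% of all windows. The CDK6 match is not within the stretch printed above for that start, which holds 0 E-boxes. E2F sites, searched as TTTCCCGC, TTTCGCGC, TTTGCCGC and TTTGGCGC, were in 0 windows, beside 3.31%. CCAAT was in 3 windows, beside 34.6%, with 3 matches at CDKN1B, and TATAAA was in 0, beside 11.5%. All motifs were searched on both strands. A match is a description of letters and not a measured site.

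The cyclin genes diverged in size. CCND1, which encodes cyclin D1, was the most abundant of them, with 8341 and 8212 counts, or 495 CPM (485 to 506) and 484 CPM (473 to 494). Its log2 ratio of -0.03 had an interval of -0.08 to 0.01, so no difference was detectable beyond counting error. CCND3, which encodes cyclin D3, had 1301 and 663 counts, or 77.3 CPM (73.1 to 81.6) and 39.1 CPM (36.1 to 42.1). CCND3 was 1.98-fold lower (1.80 to 2.18), just short of the rule.

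CCNE1, which encodes the cyclin E1 partner of CDK2, had 1941 and 1073 counts, or 115 CPM (110.2 to 121) and 63.2 CPM (59.5 to 67.1). CCNE1 was 1.82-fold lower (1.69 to 1.97) in the resistant library. The CCND1 to CCND3 count ratio went from 6.41 to 12.4, a change of 1.93-fold (1.75 to 2.13). Per length, the CCND3 part of the sum of CCND1 and CCND3 was 25.4% and then 14.9% in the resistant library. CCND2, the third D-type cyclin gene, named after its values were seen, had 5 parental counts and 0 resistant ones and was not tested.

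All 3 CIP/KIP genes had lower levels in the resistant library, and 2 passed the rule. CDKN1B encodes p27, an inhibitor whose amount is held down in growing cells by SKP2-directed degradation. It had 788 and 353 counts, or 46.8 CPM (43.6 to 50.2) and 20.8 CPM (18.7 to 23.1). CDKN1B was 2.25-fold lower (1.98 to 2.56), so the near end of its interval lay inside 2-fold, and 6.66% of all tested genes had a lower ratio.

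CDKN1C encodes p57, an inhibitor expressed mainly from the maternal copy of an imprinted region of chromosome 11. It was scarce, with 45 counts against 4 in the resistant library, or 2.67 CPM (1.95 to 3.58) and 0.236 CPM (0.0642 to 0.603). It was 10.2-fold lower (4.14 to 43.4), and the width of that interval reflects the few counts. As CDKN1C was under 1 CPM in the resistant library, it was tested only through the parental one, and the filter fixed the direction of its difference. CDKN1A encodes p21, an inhibitor induced in stressed cells. It had 637 and 400 counts, or 37.8 CPM (35.0 to 40.9) and 23.6 CPM (21.3 to 26.0), and was 1.61-fold lower (1.41 to 1.82), short of the rule.

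The ratios were unequal within the family. The CDKN1B to CDKN1A count ratio went from 1.24 to 0.882, a change of 0.713-fold (0.595 to 0.855). Per length the sum of the 3 genes was 39.7, against 20.4 in the resistant library. CDKN1A made 46.8% and 56.9% of that sum, CDKN1B 49.0% and 42.4%, and CDKN1C 4.17% and 0.717%. CDKN1B was thus the higher of the leading pair in the parental library and CDKN1A in the resistant one. The CDK6 to CDKN1B count ratio moved most of the 9 pairs in the upward direction, by 7.57-fold (6.64 to 8.65).

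RB1, the substrate on which these kinases act, had 891 and 762 counts, or 52.9 CPM (49.5 to 56.5) and 44.9 CPM (41.8 to 48.2). Its log2 ratio of -0.24 (-0.38 to -0.10) was small beside the quartiles of all tested genes, -0.39 and 0.43. Per length RB1 stood at 11.2 and 9.46. RB1 RNA was thus present in both libraries.

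**Figure D3:**
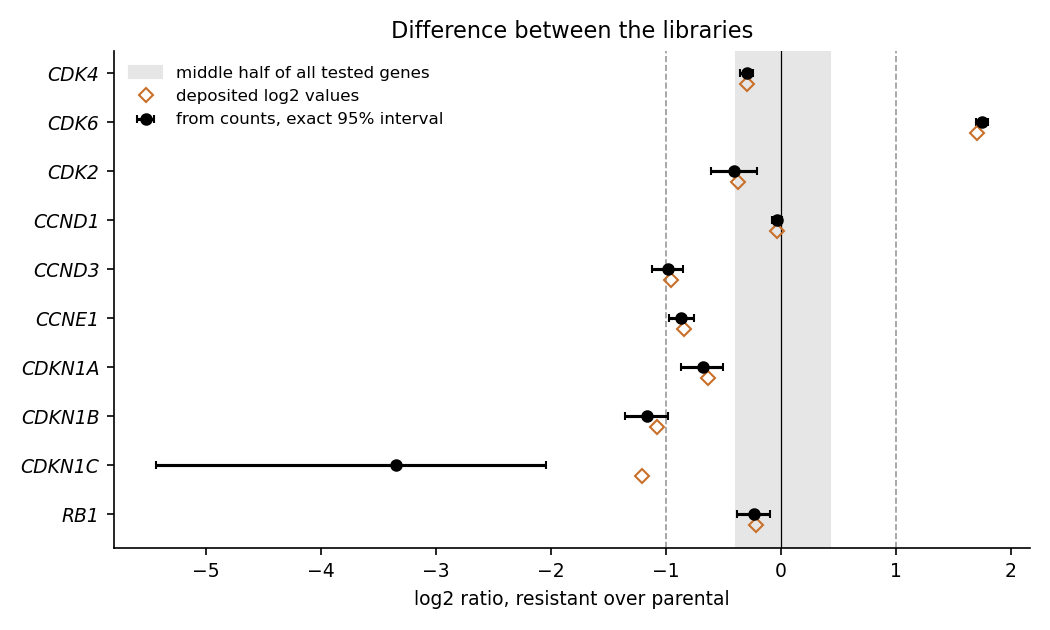
Log2 ratio of resistant over parental for the 10 genes. Black points and bars are ratios from counts with exact 95% counting intervals, open diamonds are differences of the authors' deposited log2 values, dashed lines mark 2-fold and the grey band spans the quartiles of all tested genes, -0.39 to 0.43. CDK6 lies to the right of 2-fold, CDKN1B and CDKN1C to the left, and CCND3 at the line. CDKN1C was tested only through the parental library, which fixed its direction.

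The authors' deposited log2 values gave the same calls. They differed by 1.703 for CDK6, -1.083 for CDKN1B and -1.212 for CDKN1C, beside 7.56% of tested genes higher and 4.83% lower by that measure. CDKN1C was low on that scale, at 1.409 and 0.197, where the addition of 1 makes differences of scarce genes smaller. Under a stricter rule, with the whole interval beyond 2-fold, CDK6 stayed higher and CDKN1C lower and CDKN1B did not pass, beside 8.96% of tested genes higher, 5.35% lower and 14.3% either way. For the deposited log2 values the share either way was 12.4%.

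The other genes of the pathway are given by list, and their counts stand beside 12.1% of all tested genes called higher, 8.29% called lower and 79.6% called neither. The most abundant gene of a list is that with the highest mean CPM, without regard to length. Of 6 tested genes among the remaining G1 cyclins, CDK3 and the INK4 inhibitors, which block CDK4 and CDK6, 1 was lower and 0 higher, with a median of -0.43. The lower gene was CDK3, at 83 and 40 counts. CDKN2A, whose symbol covers both p16 and ARF, was the most abundant, at 78.0 and 55.2 CPM, a log2 ratio of -0.50. CDKN2B, named after its values were seen, was at -0.79.

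Of 12 genes for pocket proteins, E2F factors and their DP partners, 0 passed the rule in either direction, and 10 ratios were below 0, with a median of -0.19. TFDP1, a DP partner, was the most abundant, at 164 and 139.6 CPM. E2F2 came nearest to the rule, at -0.95, while E2F1 (-0.02) and the pocket protein gene RBL1 (0.02) lay near 0, all 3 named after their values were seen. Of 7 genes of the MuvB complex and its activators, 0 passed, with a median of 0.08 and MYBL2, an activator of mitotic genes, at 462 and 329 CPM.

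Of 24 genes that E2F factors induce at S phase entry, 1 was lower and 0 higher, and 17 ratios were below 0, with a median of -0.17. The lower gene was POLA1, the catalytic subunit of DNA polymerase alpha, at 136 and 66.4 CPM, 2.04-fold lower (1.90 to 2.20). The helicase gene MCM7 was the most abundant, at 1919 and 1795 CPM. Of 6 mitotic cyclin, CDK1 and proliferation genes 0 passed, with a median of -0.21, and MKI67, the gene of the Ki-67 proliferation antigen, was at 881 and 959 CPM.

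Genes that act on CDK and CIP/KIP proteins follow. Of 8 genes for the CDK-activating kinase and for CDK phosphorylation, 0 passed, with a median of 0.17 and the phosphatase gene CDC25B, the most abundant, at 156 and 252 CPM. Of 17 genes for the turnover of G1 cyclins and CIP/KIP proteins, 0 passed, with a median of 0.09 and the ubiquitin ligase adaptor gene DDB1 at 404 and 384 CPM. SKP2, the subunit that marks p27 for degradation, named after its values were seen, was at 68.3 and 83.7 CPM, a log2 ratio of 0.29. Of 16 transcription regulators of the set, 1 was lower, the transcription factor gene TP73 at 40 and 4 counts, and 0 were higher. TP73 was tested only through the parental library, which fixed its direction. Their median was -0.12, with the beta-catenin gene CTNNB1 the most abundant at 428 and 465 CPM.

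**Figure D4:**
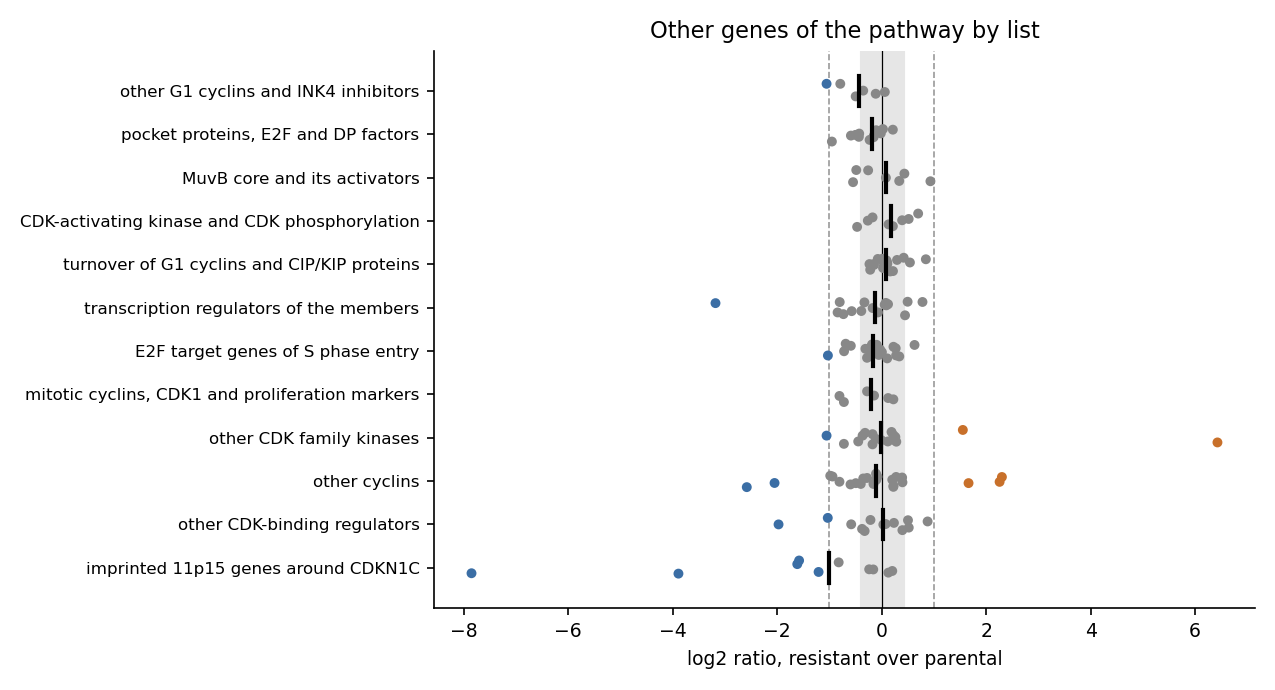
Log2 ratio of resistant over parental for tested genes of 12 pathway lists. Each dot is 1 gene, orange when at least 2-fold higher, blue when at least 2-fold lower and grey otherwise, black bars are list medians, dashed lines mark 2-fold and the grey band spans the quartiles of all tested genes. The list medians lie between -0.43 and 0.17 except for the imprinted genes around CDKN1C, at -1.02.

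For each gene, the 10 nearest tested genes on either side were taken in RefSeq order, and 20.4% of all tested genes passed the rule in 1 direction or the other. Around CDKN1B on chromosome 12, 19 of 20 neighbours had ratios below 0, with 7 lower and 1 higher. Their median was -0.92, beside -1.17 for CDKN1B, and its nearest neighbours CREBL2 and APOLD1 were at -1.18 and -2.02. Of 11745 tested genes with 20 such neighbours, 0.375% had a neighbour median at or below that value. These windows overlap, so the share is a description. Among the 19 neighbours of CDKN1B below 0, C12orf60, with 21 and 12 counts, was tested only through the parental library, which fixed its direction.

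Beside CDK6 on chromosome 7 the neighbours are given by side, a split made after the values were seen. The 10 neighbours that follow CDK6 in coordinate order all had ratios above 0, from 0.61 to 4.29, with 6 higher and a median of 1.07. Among them SAMD9L, with 9 and 17 counts, was tested only through the resistant library, which fixed its direction. The 10 that precede CDK6 had a median of 0.13, with 1 higher. The nearest genes were FAM133B before it, at -0.03, and SAMD9 after it, at 1.13. Over both sides the median was 0.72, which 3.06% of tested genes reached or passed. The neighbour medians of CDK4 (0.65) and CCND1 (0.55), neither of them called, were reached or passed by 4.03% and 5.61%. For CCND3, also not called, 4.38% had a neighbour median at or below its -0.57. Runs on a single side were not particular to CDK6. The 10 that follow CDK4 had a median of 1.03, with 5 higher and 3 ratios below 0. The 10 that follow CDKN1B, C12orf60 among them, all had ratios below 0.

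For CDKN1C, neighbours went both ways. Of 20, 5 were lower and 2 higher, and the nearest were TSSC4, at 0.20, and SLC22A18AS, with 51 and 3 counts. Of 10 tested genes of the imprinted cluster of chromosome 11 around CDKN1C, 5 were lower and 0 higher, beside 8.29% of all tested genes lower, with a median of -1.02, or -0.53 without the filter on low counts. All 10 are among the 20 neighbours, and the 5 lower genes are the 5 lower neighbours. The cluster is therefore not a second result. IGF2 and SLC22A18AS were tested only through the parental library, which fixed their direction. The 5 were the growth factor gene IGF2 with 1260 and 5 counts, SLC22A18AS, PHLDA2 at 137 and 44.5 CPM, OSBPL5 at 29.6 and 12.8 CPM, and ASCL2 with 93 and 31 counts. CD81, the most abundant of the cluster, was at 277 and 234 CPM, within 2-fold. PHLDA2 is, like CDKN1C, expressed from the maternal copy, and IGF2 from the paternal one.

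CCND3 and CDKN1A, both on chromosome 6, had neighbours with lower ratios, at medians of -0.57 and -0.38 with 17 and 16 of 20 below 0. BYSL and TAF8, beside CCND3, were at -0.54 and -0.53, and SRSF3 and PPIL1, beside CDKN1A, were at -0.30 and -0.36. PNPLA1, a neighbour of CDKN1A with 21 and 9 counts, was tested only through the parental library, which fixed its direction. The neighbours of CDK4, itself at -0.30, had a median of 0.65 with 8 higher, among them neither TSPAN31 (0.42) nor MARCH9 (-0.96), which lie next to it. That median was 0.37 when genes under 5 CPM were dropped and 0.40 on the submitters' own log2 scale. Among the 8 higher neighbours of CDK4, AGAP2 (5 and 33 counts) and CYP27B1 (15 and 35 counts) were tested only through the resistant library, which fixed their direction. CCND1 stood at -0.03 while 9 of 10 neighbours on each side had ratios above 0, with a median of 0.55 and MYEOV at 1.42 and ORAOV1 at 0.49 next to it. The median beside CCNE1 was -0.16 (C19orf12 at 0.48 and URI1 at 0.00), beside CDK2 -0.07 (DGKA at -0.70 and RAB5B at -0.04) and beside RB1 0.35 (ITM2B at 0.30 and RCBTB2 at 1.21). RCBTB2, with 7 and 17 counts, was not called and was tested only through the resistant library, which fixed its direction.

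**Figure D5:**
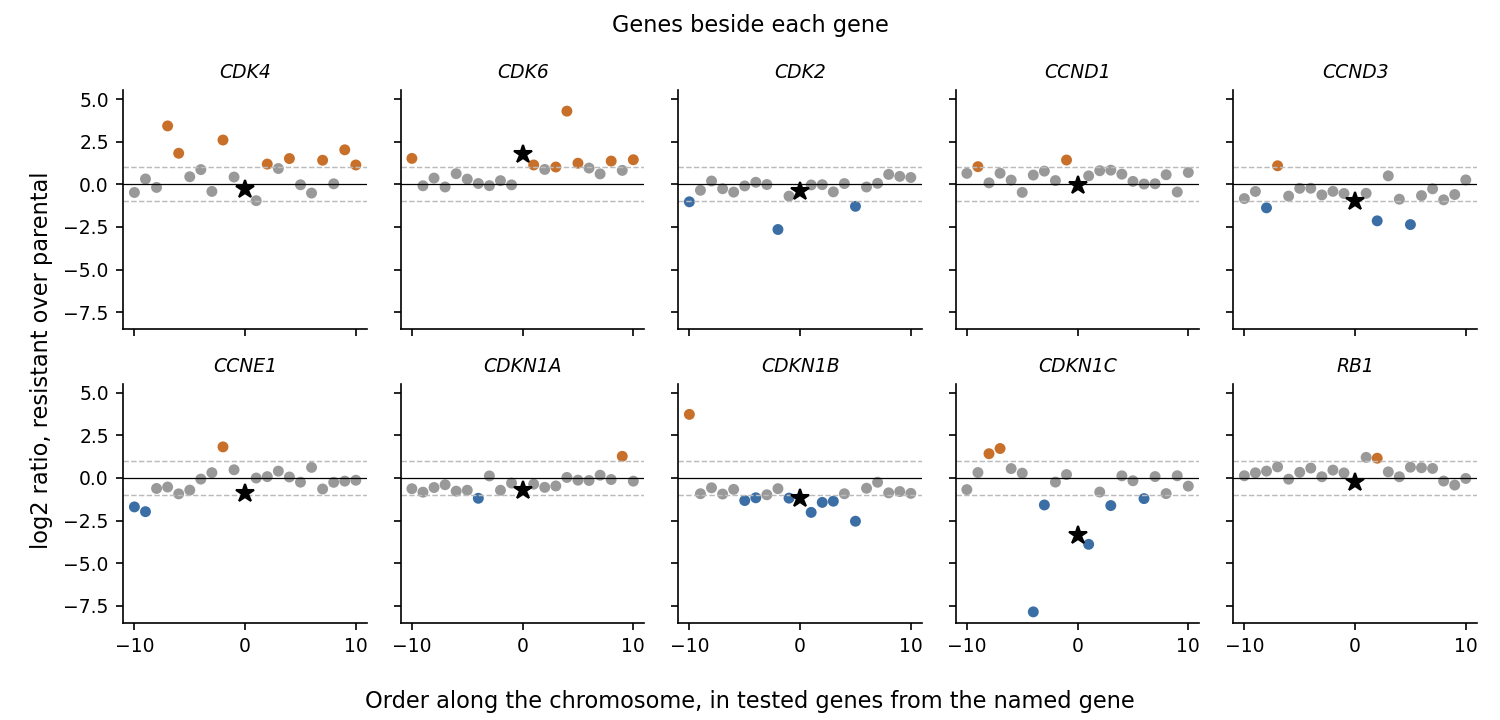
Log2 ratio of resistant over parental for the 10 tested genes on each side of each named gene, plotted by order along the chromosome. Stars are the named genes, orange and blue dots are neighbours at least 2-fold higher or lower, and dashed lines mark 2-fold. Neighbours of CDKN1B lie below 0 in 19 of 20 cases, and the 10 that follow CDK6 all lie above 0, a split by side made after the values were seen. Among these, C12orf60 beside CDKN1B and SAMD9L beside CDK6 were each tested only through the library where it was higher.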

How the data were processed

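The table the authors deposited gives, per the file headers, raw counts and normalized log2 values for each gene symbol in both libraries. RNA was extracted with TRIzol and libraries were made with a TruSeq kit, per the labels' protocols. FastQC and STAR are named without version, and GRCh38 and hg19 both as builds, per the submitters' processing notes. The counter and its strand setting are not given in the sources used here. Nor is the method behind the deposited log2 values. For a length check, CPM was divided by 2 to the deposited log2 value, minus 1, which gave each gene a factor. This factor was the same within 5% in both libraries for 96.7% of the 8345 genes with at least 200 counts in each. The deposited values were read as length-scaled levels, but the check compares libraries only and cannot show that the factor is length. In the parental library the factor was 1.88 for CDK4 and 12.0 for CDK6. Whether it follows annotated gene length was not tested.

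Counts were scaled by the trimmed mean of M-values in edgeR 4.0.16 (R 4.3.3). This set effective library sizes of 16834058 and 16974207 for every CPM given here, while the length check used total counts. Genes reaching 1 CPM in either library were tested. Log2 ratios have 0.5 added to each count, and their Clopper-Pearson conditional binomial intervals, the Poisson intervals of CPM and the conditional intervals of pair ratios (scipy 1.17.1) cover counting error only and, as reads can share a molecule, may be too narrow. The interval and call code was tested on simulated data. Alternatives were total counts, DESeq2 1.42.0 size factors, upper quartiles, other filters, a stricter rule, a larger addition, fewer neighbours and the deposited log2 values.

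The 10 genes, the pathway lists and the pairs were chosen with earlier results of these data known. Named genes are the 10, the most abundant gene of each list by mean CPM with the genes past the rule, and the nearest tested gene on each side. The plan allowed up to 4 past the rule, and more are named for the imprinted genes and the other cyclins. Some further neighbours are named because they were tested through 1 library only. Of 181 list genes, 179 were in the table, and the other two are not analysed here. Gene order came from RefSeq on GRCh38.p14, which placed 18847 of 18944 symbols. The result of 1 list gene is not reported here.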

Additional observations from a re-analysis of the deposited data

How the results depend on the processing

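No paired analysis was possible because each group had 1 library. Log2 ratios of the 10 genes were recomputed with total counts, DESeq2 size factors, upper quartiles, the deposited log2 values and 5 added to each count. None changed direction, and the calls held with 1 exception: CCND3 passed the rule with total counts, at -1.003. CDKN1C ranged from -3.37 to -1.21, CDKN1B from -1.19 to -1.08 and CDK6 from 1.70 to 1.77. Members at least 2-fold lower numbered 1 with at least 5 CPM in 1 library, where CDKN1C was no longer tested, and 1 with the whole interval beyond 2-fold, where CDKN1B was lost; the stricter rule called 8.96% of tested genes higher and 5.35% lower. Of the 179 list genes in the table, those tested and called over all 14 lists numbered 21, or 13 under the stricter rule. The 179 include genes that were not tested, so no share of tested genes follows from that count. Genes called beside the 10, with 20 neighbours each, numbered 45, or 30 under the stricter rule. With 5 neighbours on each side, where fewer were taken, they numbered 26. These counts stand beside 20.4% of all tested genes called either way, or 14.3% under the stricter rule, and are descriptions only. Of 148 list and neighbour medians recomputed, 128 moved by at most 0.1 and 4 changed sign, all 4 from a main value within 0.16 of 0. Without a filter on low counts the median beside CDK6 was 0.49, beside CCND1 0.23, beside CDKN1C -0.01 and for the imprinted genes -0.53. The -0.01 beside CDKN1C, also found beside CCNE1, is the ratio that equal counts give, as for INS with 0 in each library. It is therefore no measure of the detected neighbours. The median beside CDK4 was 0.37 with at least 5 CPM in 1 library and 0.40 with the deposited log2 values, and with 5 neighbours on each side that beside CDKN1C was -0.53. CDKN1C rests on 45 and 4 counts.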

Other observations

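The other CDK and cyclin genes are given beside 20.4% of all tested genes called higher or lower, and their shares lie near that background. Of 17 other tested CDK genes, 2 were higher while CDK3 was the 1 lower gene, and the median was -0.01. CDK14, a kinase that pairs with cyclin Y at the membrane, had 11 parental and 997 resistant counts, 86.0-fold higher (50.02 to 181). It was under 1 CPM in the parental library and was tested only through the resistant one. CDK16, another partner of cyclin Y, was at 66.5 and 195 CPM, 2.93-fold higher (2.74 to 3.14). The cyclin Y gene CCNY itself, named after its values were seen, was at 101 and 95.03 CPM. CDK1, the mitotic kinase and the most abundant of the list, was at 328 and 198 CPM.

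Of 23 other tested cyclin genes, 3 passed as higher and 2 as lower, at a median of -0.11. CNTD2, CCNJ and CCNI2 were higher, at 30 and 151, 99 and 317, and 5 and 26 counts. CCNJL and CCNB3 were lower, at 258 and 43 and at 18 and 4 counts. CCNI2 and CCNB3 were each tested only through the library where they were higher, which fixed their direction. CCNB1, the most abundant, was at 310.1 and 255 CPM. Of 13 other genes for CDK-binding proteins, 2 were lower and 0 higher, with a median of 0.03. CABLES1, which links CDKs to tyrosine kinases, was 3.93-fold lower (3.52 to 4.40), and CDK2AP1, a CDK2-binding protein gene, was 2.05-fold lower (1.92 to 2.18). The chaperone gene CDC37, the highest of the list by mean CPM, was at 173 and 149 CPM, and CDK2AP1 at 173 and 84.4 CPM.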
